A study of Mus musculus with 4 samples.

Results

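The sites described here are adenosines called as carrying N6-methyladenosine (m6A) within 1000 bases of the 3' end of a gene feature. They were chosen from the site lists of the libraries by 3 conditions: a coverage of at least 50 reads showing A or G, a position on the same strand inside exactly 1 listed feature, and a distance of at most 1000 bases to that feature's 3' end. They numbered 22580 and 26805 in the 2 wild-type (WT) libraries and 20177 and 21243 in the 2 Mettl3 knockout (KO) libraries. Together they made up 79787 distinct positions of the 881997 positions in the 4 lists, and of the 341219 with that coverage in at least 1 list. Another 223159 positions with that coverage lay farther from the 3' end of exactly 1 feature and served for comparison.

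The RNA came from mouse retinal organoids after 4 days of differentiation. The WT libraries came from the Rx:GFP line, which carries a fluorescent reporter of the eye field gene Rax. The KO libraries came from the Mettl3 KO Rx:GFP line, which also harbours a HA-tagged METTL3 inducible by doxycycline. The labels give no treatment for either group and the same batch for all libraries. Both lines were differentiated in one medium with the agent AGN. How many clones or cultures stand behind the libraries is not given in the sources used here, so each p-value below measures the spread between these libraries, which may be technical.

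METTL3 is the catalytic subunit of the complex that writes most m6A in mRNA, and METTL14 and WTAP are its partners. In mammalian mRNA this mark is known to be frequent around the stop codon and in the 3' untranslated region, where reader proteins of the YTH family bind it and affect the stability and translation of the transcript. The assay, GLORI, deaminates unmodified adenosine so that it is read as G, while m6A is still read as A. The level of a site is therefore the fraction of its reads that show A. The lists hold only sites with a level of at least 0.1, at least 5 reads showing A and an authors' p of at most 0.004. A site missing from a list may thus have been mostly converted, too thinly covered or outside the limit on p.

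High levels separated the genotypes far more than the number of sites did. At a level of 0.5 or more there were 1582 and 1878 sites near 3' ends in the WT libraries and 181 and 260 in the KO libraries. The KO mean of 220.5 ± 55.9 sites (SD, n = 2) was 0.127 times the WT mean of 1730 ± 209.3 (SD, n = 2), and the groups did not overlap. At a level of 0.3 or more the numbers were 3630 and 4354 in WT and 1062 and 1369 in KO, a ratio of 0.304. For all listed levels the ratio was 0.839, from a WT mean of 24692.5 ± 2988 sites and a KO mean of 20710 ± 753.8 sites (SD, n = 2 each). In a two-sided exact permutation test each of these 3 differences gave p = 0.333, the smallest p that 2 libraries against 2 allow.

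The ratio of KO to WT sites went down with the level up to 0.9. Between 0.1 and 0.2 the lists held 15170 and 17922 sites in WT and 16401 and 16577 in KO, a ratio of 0.997 over summed libraries with overlapping groups. Between 0.4 and 0.5 there were 721 and 843 sites in WT and 224 and 303 in KO, a ratio of 0.337. Between 0.8 and 0.9 there were 220 and 283 in WT and 10 and 12 in KO, a ratio of 0.0437. Above 0.9 the ratio was 0.0825, with 324 and 367 sites in WT and 24 and 33 in KO. The median level over all sites near 3' ends was 0.159 in both WT libraries and 0.138 and 0.145 in the KO libraries, a difference of -0.0172. In every library most of the sites had a level between 0.1 and 0.2.

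**Figure D1:**
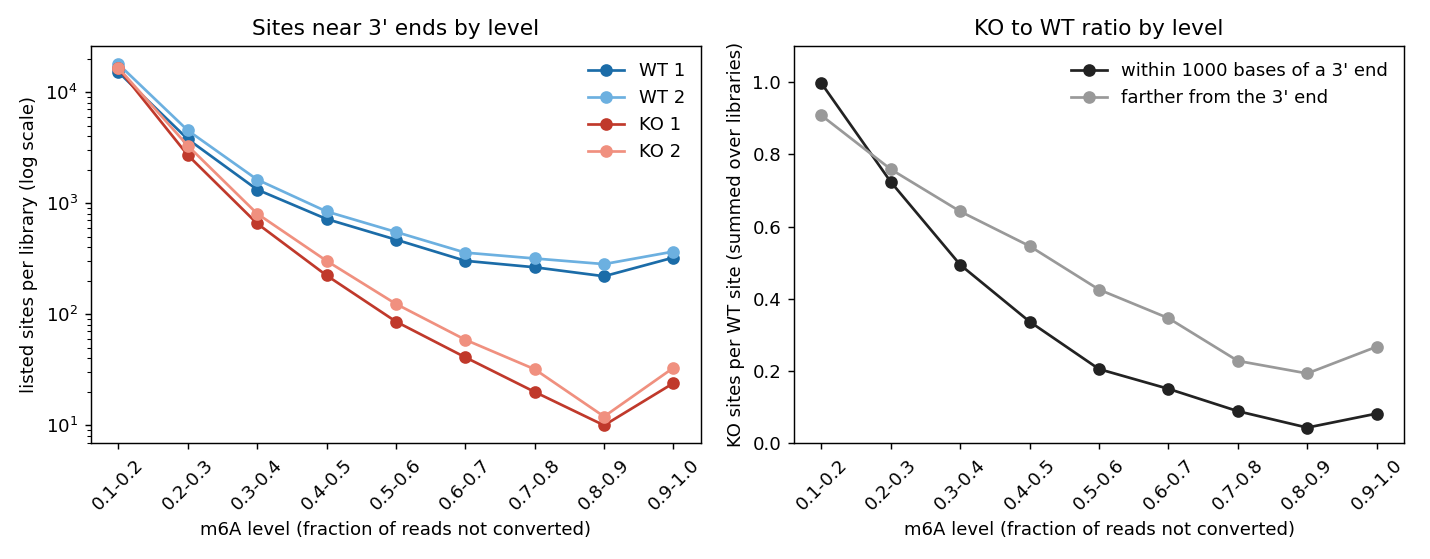
Left, number of listed sites near 3' ends (log axis) by m6A level, 1 line per library; right, KO sites per WT site, summed over the 2 libraries of each genotype, near 3' ends and farther away. The 4 libraries lie together at 0.1 to 0.2, and at 0.8 to 0.9 the WT libraries hold 220 and 283 sites against 10 and 12 in KO.

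Sites farther from the 3' end showed the same order with a smaller separation. At a level of 0.5 or more they numbered 3053 and 4850 in WT and 1064 and 1437 in KO, a ratio of 0.316 (exact permutation p = 0.333). As a share of sites, 7.01% of sites near 3' ends reached 0.5 in each WT library, against 5.53% and 6.06% of sites farther away. In KO the order was turned: 0.897% and 1.22% near 3' ends against 1.74% and 2.90% farther away. The difference between both zones was thus 1.48 and 0.942 percentage points in WT and -0.840 and -1.68 percentage points in KO, with p = 0.333 in the exact permutation test over the 4 libraries. Of all placed sites at 0.5 or more, 34.1% and 27.9% lay near 3' ends in WT and 14.5% and 15.3% in KO. The share of all placed sites that lay near 3' ends, whatever their level, was 29.0% and 25.1% in WT and 24.8% and 30.0% in KO, so the genotypes overlapped (exact permutation p = 1).

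The median coverage of sites near 3' ends was 95 and 98 reads in WT and 84 and 87 reads in KO, against 82 and 85 in WT and 77 and 78 in KO farther away. Its part in the counts was not tested. With a coverage of at least 100, the KO to WT ratio of sites at 0.5 or more was 0.0413, and with a coverage of at least 20 it was 0.347. Most of the sites lay in protein-coding genes (87.8% to 88.8% per library), and 11.7% to 12.7% lay in features shorter than 2000 bases. Without those short features the ratio at 0.5 or more was 0.111.

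In all 4 libraries the last 100 bases of the features held fewer listed sites than any other 100-base step of the window. Within 100 bases of the 3' end there were 1516 and 1657 sites in WT and 1410 and 1610 in KO. From 201 to 300 bases there were 2884 and 3353 in WT and 2517 and 2627 in KO. These counts were not scaled to the adenosines or reads available in each step, so they do not measure how frequent m6A was there. The share of WT sites at 0.5 or more was 4.38% in the last 100 bases and 8.09% from 201 to 300 bases, as means of both libraries. From 301 to 1000 bases it lay between 6.38% and 7.54%. In KO this mean share lay between 0.773% and 1.37% in every 100-base step of the window. The KO to WT ratio of high sites was lowest from 201 to 300 bases, at 0.0794, and highest in the last 100 bases, at 0.209.

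The distance of 1000 bases did not mark an edge in these values. From 1001 to 1500 bases the ratio of high sites was 0.130, from 1501 to 2000 bases 0.142, from 2001 to 3000 bases 0.201, and beyond 10000 bases 0.535. Just inside the limit, from 951 to 1000 bases, the median levels were 0.160 and 0.158 in WT and 0.138 and 0.148 in KO. Just outside it, from 1001 to 1050 bases, they were 0.157 and 0.165 in WT and 0.138 and 0.149 in KO. Across the coverage limit, sites with 45 to 49 reads had medians of 0.20 in both WT libraries and 0.174 and 0.178 in KO. Sites with 50 to 54 reads had medians of 0.189 and 0.192 in WT and 0.160 and 0.176 in KO.

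**Figure D2:**
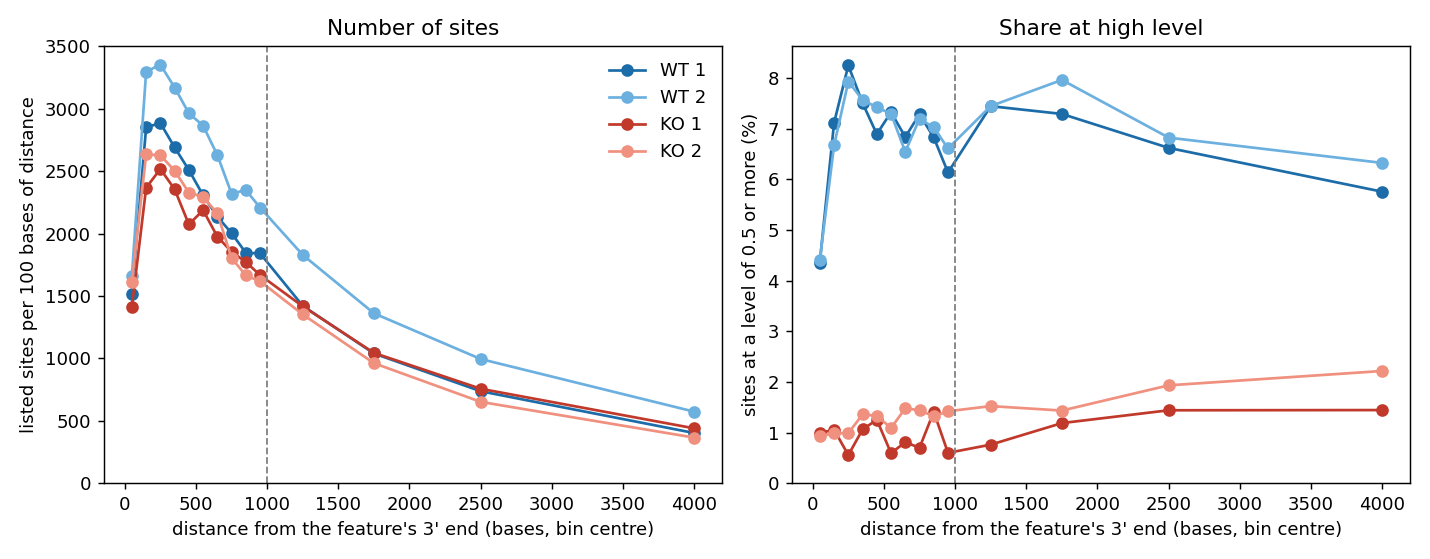
Listed sites per 100 bases (left) and the share of sites at a level of 0.5 or more in percent (right) against the distance from the feature's 3' end in bases, 1 line per library, with a dashed line at 1000 bases. Sites are densest from 101 to 400 bases in all 4 libraries, and the share at high level is above 4% in both WT libraries and below 3% in both KO libraries at every distance drawn.

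WT sites near 3' ends came back in the other library of the same genotype more often than KO sites did. A site was counted as listed again when the other list held it at any coverage. Of the WT sites, 25.2% (95% Wilson interval 24.7 to 25.8) and 22.8% (22.3 to 23.3) were listed again in the other WT library. Of the KO sites, 9.18% (8.79 to 9.58) and 7.06% (6.72 to 7.41) came back in the second KO list. These intervals cover counting error only, and reads may be PCR copies of one molecule. The WT libraries both held 5280 of these sites with 50 reads or more, which is 12% of their union. The KO pair shared 1375, or 3.43% of its union, which was in the range of the mixed pairs of 1 WT and 1 KO library (3.22% to 3.51%).

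The return of WT sites went up with the level up to 0.8, and that of KO sites varied less below 0.8. In WT, 15.5% and 13.9% of sites between 0.1 and 0.2 were listed again, 30.8% and 27.2% between 0.2 and 0.3, 50.2% and 46.0% between 0.3 and 0.5, and 72.4% and 65.6% between 0.5 and 0.8. In KO the same steps gave 8.94% and 6.27%, 9.69% and 9.68%, 9.99% and 9.02%, and 9.52% and 10.2%. For KO 2 the intervals of the lowest step (5.91 to 6.65) and the next (8.71 to 10.7) did not overlap. Above 0.8 the KO lists held only 34 and 45 sites, of which 58.8% (42.2 to 73.6) and 42.2% (29.0 to 56.7) came back. By coverage, 17.3% and 15.2% of WT sites with 50 to 99 reads came back against 6.88% and 6.15% of KO sites. With at least 200 and under 500 reads these shares were 43.7% and 37.3% against 15.3% and 10.2%, and with 500 or more reads 70.0% and 67.1% against 48.5% and 31.5%. Of sites at 0.5 or more with at least 200 reads, 90.6% of 341 and 87.5% of 409 came back in WT, and 83.3% of 12 (55.2 to 95.3) and 88.9% of 9 (56.5 to 98) in KO.

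**Figure D3:**
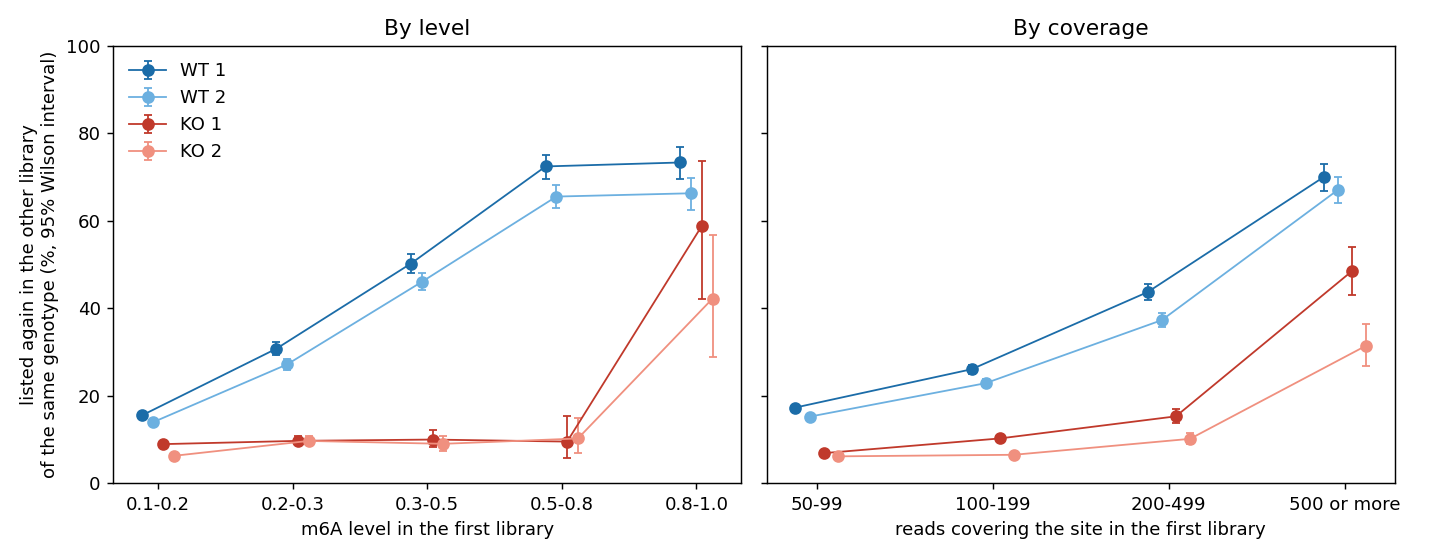
Percent of sites near 3' ends listed again in the other library of the same genotype, by level (left) and by coverage in the first library (right), with 95% Wilson intervals and 1 line per starting library. WT shares go from 15.5% and 13.9% at levels of 0.1 to 0.2 to 73.3% and 66.3% above 0.8, and KO shares stay between 6.27% and 10.2% below 0.8.

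Farther from 3' ends the WT pair shared 6.68% of its union and the KO pair 2.96%. For sites that both libraries of a genotype listed with 50 reads or more, the levels had a Pearson correlation of 0.868 in WT and 0.753 in KO near 3' ends. These are correlations across sites, which are not independent replicates. Most positions, 87.9% of 79787, met the coverage limit in 1 library, and 276 met it in all 4.

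The 5280 WT-shared sites near 3' ends lay in 2902 features and had a median level of 0.234. Of them, 1009 had a mean level of at least 0.5, and 960 of those were in protein-coding genes. Sites of one gene differed widely: in the 592 features with at least 3 such sites the highest had a median level of 0.547 and the lowest 0.148, and 221 features held both a site at 0.5 or more and one below 0.2. Ube2d1, a ubiquitin-conjugating enzyme, had the most, with 9 sites from 254 to 694 bases before its 3' end and mean levels from 0.142 to 0.443. Bap1, Fen1, Jam3, Mat2a and Maea followed in the ranking with 8 each, as did Sgta. In Fen1, a flap endonuclease of DNA replication, 1 site at 573 bases had levels of 1.00 and 0.996 in WT, and the other 7 had mean levels from 0.113 to 0.471. In Maea, a subunit of a ubiquitin ligase, 3 sites had mean levels of 0.908, 0.910 and 0.949 and the other 5 had 0.147 to 0.482.

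Most of the WT-shared sites were in neither KO list. Of 5198 such sites in features with a listed site in each KO library, 4287 or 82.5% (81.4 to 83.5) were in neither KO list, 610 were in 1 and 301 in both. Over all placed sites with the same coverage this share was 80.6%, and farther from 3' ends it was 79.4% (78.5 to 80.2) of 8423, so the zone near 3' ends was close to the background. In the other direction, 59.7% (57.1 to 62.3) of 1346 KO-shared sites were in neither WT list. The share in neither KO list was also 82.5% for the 4635 sites whose expected KO coverage, scaled from the WT coverage by the deposited gene coverages, was at least 50 reads. It was 71.8% (69.9 to 73.6) for the 2295 sites with a KO-listed position of sufficient coverage within 100 bases in each KO library. The site itself counted as such a position, so sites listed in KO passed more easily and this share is lowered by construction.

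By WT level, the share in neither KO list was 76.8% between 0.1 and 0.2, 85.9% between 0.2 and 0.3, 89.2% between 0.3 and 0.5 and also between 0.5 and 0.8, and 72.4% (67.4 to 77.0) at 0.8 or more. The sites with the highest WT levels were thus more often still listed in KO than those between 0.3 and 0.8. In features of at least 2000 bases, the sites at 0.8 or more that were listed in KO had median levels there of 0.152 (36 sites) and 0.158 (42 sites). In KO 1, 33 of those 36 sites were below 0.3, and in KO 2, 39 of 42 were. Since a level below 0.1 is not listed, these medians describe only the sites above that limit.

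**Figure D4:**
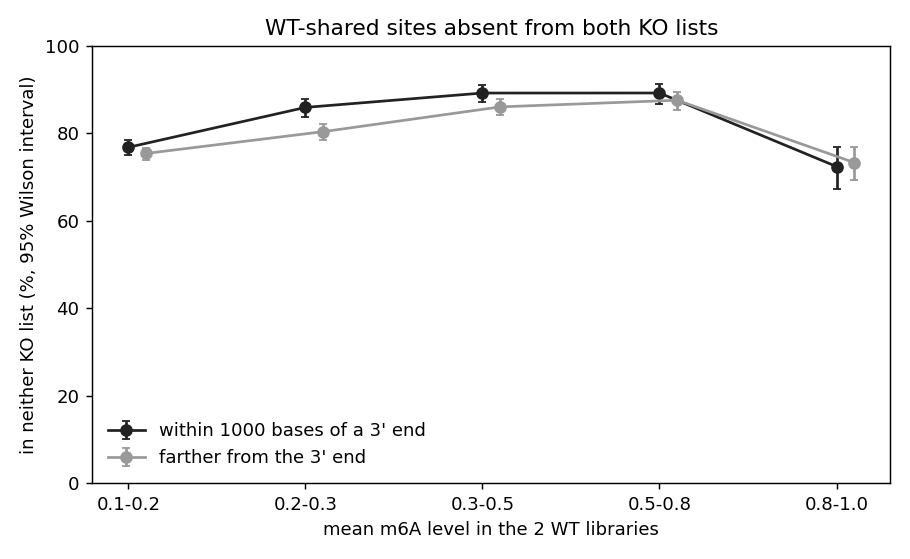
Percent of WT-shared sites found in neither KO list by mean WT level, with 95% Wilson intervals, near 3' ends and farther away. Near 3' ends the share is 76.8% at 0.1 to 0.2, 89.2% at 0.3 to 0.8 and 72.4% at 0.8 or more.

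Several sites that were almost fully methylated in WT were in neither KO list although their expected KO coverage was at least 50 reads. The KO reads at these sites themselves are not listed. Coordinates are those of the lists, whose build did not match the gene table at hand. Zfp623, a zinc finger gene (ENSMUSG00000050846, chromosome 15, 75812801 to 75821249, plus strand), had a site at position 75820891 with levels of 0.986 of 283 reads and 0.992 of 374 reads in WT. Its expected KO coverage was 373.4 and 308.9 reads, and KO-listed sites within 100 bases had 250 and 87 reads. Sf3b5, a splicing factor subunit (ENSMUSG00000078348, chromosome 10, 12881087 to 12884927, plus strand), had levels of 0.977 and 0.998 at position 12884781, with 252 and 441 reads at neighbouring KO-listed sites. These sites were picked for the highest WT levels among those in neither KO list, so the high WT level and the missing KO listing follow from the rule.

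The other sites picked by this rule had WT levels between 0.949 and 0.995 and expected KO coverages between 120.0 and 3286 reads. They lay in Gm17208, Arxes2, Apex1, Ier2, Fat1, Tcp1, Sox3 and Poglut1. Ier2, Tcp1 and Poglut1 had a KO-listed site of at least 50 reads within 100 bases in KO 2 only. The rest had such a site in neither KO library, so their KO coverage rests on the gene coverage alone. Apex1 encodes a DNA repair endonuclease, Ier2 an immediate early protein, Fat1 a large cadherin, Tcp1 a chaperonin subunit and Poglut1 a glucosyltransferase of Notch. In Sox3, a transcription factor of neural progenitors, the site 336 bases before the 3' end had levels of 0.972 of 1287 reads and 0.960 of 1763 reads. A second Sox3 site at 524 bases had levels of 0.981 and 1.00 in WT, 0.106 of 529 reads in KO 1, and was not listed in KO 2.

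Sites listed in all 4 libraries allowed a test of the level itself. Of the 276 such sites near 3' ends, 8 fell and 0 rose in KO (edgeR quasi-likelihood test, Benjamini-Hochberg adjusted over all 1557 sites tested, threshold 0.05). The background was 2.57% lower and 0% higher over those 1557 sites, so the 8 of 276 sites near 3' ends (2.90%) stood near the background. That background includes the 276 sites themselves and sites of lower coverage. Farther from 3' ends, with at least 50 reads in each library, 20 of 452 sites (4.42%) were lower and 0 higher. The difference between these shares was not tested. At an unadjusted p under 0.05, 17 sites near 3' ends were lower and 5 higher, and limma found 6 lower and DESeq2 10, with 0 higher in both. The 276 sites had a median difference in level, KO minus WT, of 0.00216, against 0 over all sites tested. Both KO values lay below both WT values at 51 of them and above at 48, where the background was 19.9% and 17% of all sites tested. These sites are a selected set, because a site whose KO level dropped below 0.1 is not in the KO lists and cannot be tested.

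The 8 sites that fell were high in both WT libraries and low in both KO libraries. They were picked by the test on these same levels, so the separation of the groups largely follows from the rule. In Rab31, a small GTPase of vesicle transport, the site at position 65959091 of chromosome 17, 367 bases before the 3' end, had a level of 1.00 in both WT libraries (81 and 52 reads) and 0.160 and 0.156 in KO (119 and 90 reads; edgeR adjusted p = 0.000543). In Tmem132a, a transmembrane protein gene, the site at position 10835286 of chromosome 19, 100 bases before the end, had the deepest coverage of the 8. Its levels were 0.990 of 805 reads and 0.970 of 824 reads in WT and 0.129 of 1755 reads and 0.167 of 1571 reads in KO (edgeR adjusted p = 8.81e-05). In Kdm2b, a histone demethylase gene, the levels were 1.00 and 0.932 in WT and 0.119 and 0.141 in KO at position 123009541 of chromosome 5. That call was lost in limma (adjusted p = 0.111), as was the one in Qrsl1, a subunit of mitochondrial glutaminyl-tRNA amidotransferase (limma adjusted p = 0.135). Without KO 1 the edgeR adjusted p was 0.104 for Kdm2b and 0.191 for Qrsl1, and without KO 2 it was 0.0752 and 0.149. These fits leave 1 KO library, which is assumed to vary like the WT libraries. In none of the 8 did the groups overlap, which the rule for naming them also required.

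The Qrsl1 site had levels of 0.992 and 0.886 in WT and 0.201 and 0.242 in KO. In Med10, a Mediator subunit gene, the levels were 0.887 and 0.923 in WT and 0.141 and 0.123 in KO. In Arhgap28, a gene of a GTPase-activating protein, they were 0.812 and 0.813 in WT and 0.150 and 0.131 in KO. In Brd2, which encodes a reader of acetylated histones, they were 0.788 and 0.763 in WT and 0.235 and 0.109 in KO. The last of the 8 lay in the pseudogene Siah1-ps1, with 0.803 and 0.737 in WT and 0.161 and 0.162 in KO, and its reads may come from near-identical copies. The falls of the 8 sites in level ranged from 0.603 to 0.842.

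A few sites kept a high level in KO. Among the 1375 KO-shared sites near 3' ends, 24 had a mean level of at least 0.5, against 1009 of 5280 in WT, and 20 of the 24 were also listed in both WT libraries. Of the 24, 19 lay in features shorter than 2000 bases and 5 in protein-coding genes. The 5 were 3 sites of Mat2a and 1 each of Teddm1b and Dbx1.

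Mat2a encodes the enzyme that makes S-adenosylmethionine, the methyl donor, and its 3' untranslated region is a known substrate of METTL16, another m6A methyltransferase. At position 72410270 of chromosome 6, 488 bases before the 3' end (ENSMUSG00000053907, 72409782 to 72416541, minus strand), the levels were 0.666 of 1526 reads and 0.765 of 2467 reads in WT and 0.863 of 1427 reads and 0.966 of 1307 reads in KO. Both KO values were above both WT values, but the difference of 0.199 did not pass the quasi-likelihood test (edgeR adjusted p = 0.1996). It passed edgeR's likelihood ratio test (adjusted p = 0.00902) and the fit with a replicate block (adjusted p = 0.00288), but not limma (adjusted p = 0.533) or DESeq2 (adjusted p = 0.487). At 373 bases the levels were 0.643 and 0.720 in WT and 0.717 and 0.714 in KO. At 154 bases they were 0.575 and 0.548 in WT and 0.583 and 0.608 in KO. Another site at 262 bases had 0.968 and 0.960 in WT and 0.836 of 110 reads in KO 2, and was not listed in KO 1. All 8 WT-shared Mat2a sites were listed in KO 2 and 5 of them in KO 1, whereas each of Ube2d1, Bap1, Fen1, Jam3 and Maea had at most 2 of its WT-shared sites in either KO list. The Mat2a sites at 488, 373 and 154 bases had 546 to 2467 reads in WT. WT reads were 133 to 968 at the Ube2d1 sites, 54 to 469 in Bap1 and 87 to 508 in Jam3. The part of coverage in this contrast was not tested.

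In Teddm1b the levels were 0.742 and 0.750 in WT and 0.829 and 0.807 in KO. In Dbx1, a homeobox gene, they were 0.789 of 76 reads in KO 1 and 0.213 of 108 reads in KO 2, with no WT listing, so the KO libraries disagreed. The remaining 19 sites lay in short features, where reads of near-identical copies cannot be told apart, and they are given as uncertain. They include 3 snRNA features of 191 bases, Gm22973, Gm23971 and Gm25360, each with its site at base 30 and levels of at least 0.959 in all 4 libraries. In Rn18s-rs5, a copy of 18S ribosomal RNA sequence, the site at base 1812 had 0.864 and 0.828 in WT and 0.840 and 0.807 in KO, with 5943 to 15180 reads. Ribosomal and spliceosomal RNAs are known to be methylated by enzymes other than METTL3. The others were pseudogenes and unnamed gene models such as Gm6266, Gm9619, Gm10293, Rpl15-ps6, Gm10313 and Gm5921. These 6 had KO levels between 0.970 and 1.00 and WT levels between 0.948 and 1.00.

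**Figure D5:**
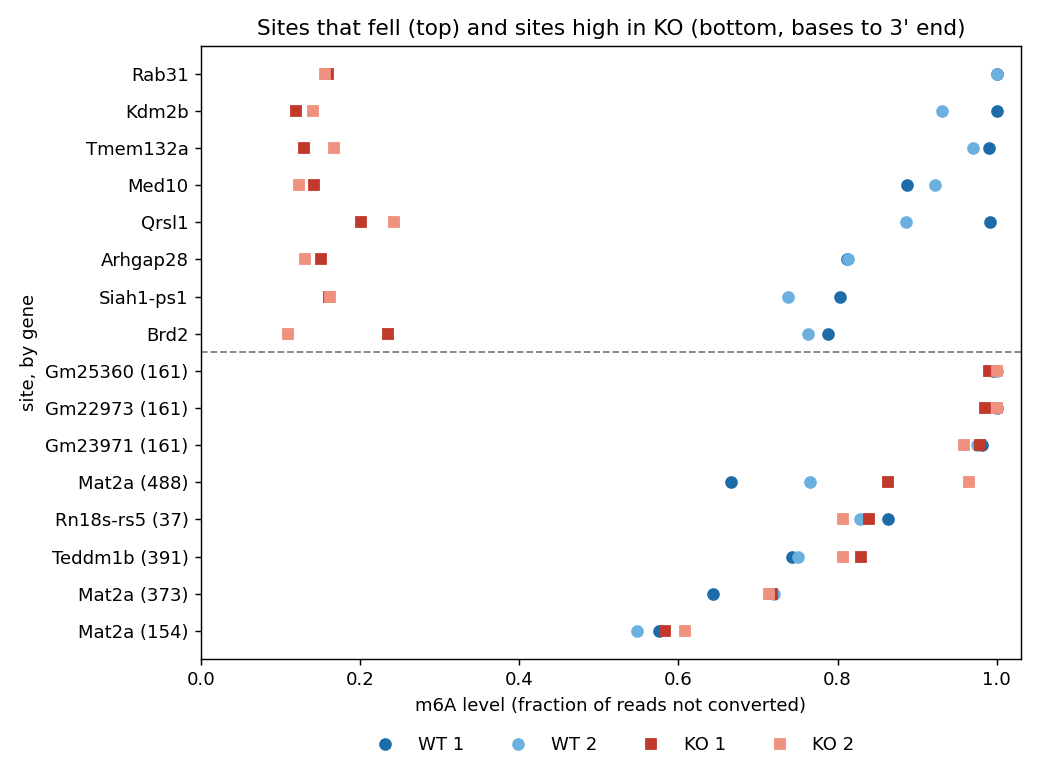
Level in each of the 4 libraries (circles WT, squares KO) at the 8 sites that fell and at selected sites with a high KO level, the latter with bases to the 3' end in parentheses. The 8 upper sites lie above 0.7 in WT and below 0.3 in KO, and the lower sites lie above 0.5 in every library.

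Some KO-shared sites were in neither WT list. The highest lay in the pseudogenes Gm6789, with 0.981 of 105 reads and 0.959 of 98 reads, and Gm6452, with 0.544 of 103 reads and 0.747 of 79 reads, followed by the Dbx1 site. Reads of pseudogenes can come from near-identical copies, so those levels are uncertain. With at least 100 reads in both KO libraries there were 278 such sites, and the highest mean among these was 0.352, in 2510039O18Rik, with 0.252 and 0.452. Next came Sap130 with 0.232 and 0.441, Zfp518b with 0.105 and 0.558, and Arhgef2 with 0.323 and 0.266. The SD between both KO libraries was 0.141 to 0.320 in the first 3 of these.

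Among genes of the eye field and early neural tissue, 28 WT-shared sites near 3' ends lay in 10 of 19 genes, and 24 of the 28 (85.7%) were in neither KO list. The background for this and the next gene lists is the 82.5% of all such sites near 3' ends and the 80.6% of all placed sites, and the difference of a list from it was not tested. Their median level was 0.254, and 7 were at 0.5 or more. Lhx2, an eye field transcription factor, had levels of 0.896 of 424 reads and 0.922 of 604 reads at 299 bases, and 0.205 of 39 reads in KO 1. Its gene coverage was 4.52 and 5.06 times the library median in WT and 0.676 and 0.651 times in KO, so the KO depth was low. Pax6, with 2.35 and 2.45 times in WT and 2.77 and 2.31 times in KO, had levels of 0.864 and 0.856 at 578 bases in WT and no KO listing there. Sfrp1, a secreted Wnt antagonist, had 0.732 and 0.738 at 207 bases in WT and no KO listing. In bulk RNA, fewer cells of a type and less RNA per cell cannot be told apart.

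The labelled tissue was checked against its markers. Of the eye field markers, Rax had 20 and 35 listed sites in WT and 0 in either KO list, and Six3 had 50 and 51 against 14 and 15, none of them near the 3' end with sufficient coverage. Six3 gene coverage was 17.3 and 19.4 times the median in WT and 1.92 and 2.54 times in KO. Six6 had no listed site in any library. Of the 9 markers of endoderm, mesoderm, neural crest and surface ectoderm, none had a site near its 3' end with sufficient coverage. Rax and Six3 had none there either, so this cannot tell whether such cells were present. Sox17, Gata6 and Tfap2a had no feature in the lists. At any coverage and distance, Foxd3 had 1 and 2 listed sites in WT and 5 and 4 in KO. Sox10 had 0 and 2 in WT and 1 and 3 in KO, Eomes 0 and 3 in WT and 1 and 0 in KO, and Foxa2 1 in WT 1. Of 3 neuronal markers, Tubb3 had 7 WT-shared sites near its 3' end, 6 of them in neither KO list, at gene coverages of 4.46 and 4.50 times the median in WT and 4.05 and 3.64 times in KO. Of 3 pluripotency markers, Pou5f1 had 2 WT-shared sites near its 3' end, 1 of them in neither KO list, and Nanog and Zfp42 had 0. At any coverage and distance, Nanog had 9 and 17 listed sites in WT and 10 and 9 in KO. Pou5f1 had 9 and 10 in WT and 4 and 4 in KO, and Zfp42 8 and 2 in WT and 0 in KO. Gene coverages of Nanog were 2.29 and 2.84 times the median in WT and 1.76 and 1.32 times in KO. Those of Pou5f1 were 0.979 and 1.22 times in WT and 0.714 and 0.621 times in KO. The part of these coverage differences in the counts of single genes was not tested. Mettl3 itself had 1 site near its 3' end in WT 1 and 0 in the other libraries, and gene coverages of 1.07 and 0.879 times the median in WT and 1.23 and 1.08 times in KO. Which stretch of the gene was deleted is not given in the sources used here, so this coverage does not check the genotype.

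Signalling genes of the early forebrain had 34 WT-shared sites in 12 of 29 genes, and 26 (76.5%) were in neither KO list, against the background of 82.5%. Hes5, a Notch target, had a level of 1.00 in both WT libraries (129 and 79 reads) at 352 bases and no KO listing, with an expected KO coverage of 167.8 and 178.9 reads. Id1 and Id3, inhibitors of helix-loop-helix factors downstream of BMP, had 0.898 and 0.832 at 209 bases and 0.785 and 0.830 at 625 bases in WT, and neither was listed in KO. Hes1 had 0.353 and 0.187 in WT and 0.211 of 76 reads in KO 2. Axin2, a Wnt target, had 0 and 1 sites near its 3' end in WT and 8 and 15 in KO. Its gene coverages were 0.792 and 0.596 times the median in WT and 1.42 and 2.44 times in KO. Id1 had 5 and 3 sites in WT and 9 and 11 in KO. Fzd7, Gli2 and Bmpr1a also had more sites in both KO libraries than in either WT library. Fzd1, Fzd3, Spry2 and Dusp6 were among the genes with fewer. The whole list had 103 and 109 sites in WT and 78 and 109 in KO.

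Genes of the m6A machinery had 14 WT-shared sites in 9 of 20 genes, and all 14 were in neither KO list, against the background of 82.5%. Rbm15, an adaptor of the writer complex, had 1.00 in both WT libraries (66 and 72 reads) at 834 bases. Zc3h13 and Wtap, further subunits, had 0.545 and 0.479, and 0.478 and 0.50. Mettl14 had 0.217 and 0.308 and the reader Ythdc1 0.115 and 0.116, so high and low sites were both among the 14.

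Pluripotency and early epiblast genes had 10 WT-shared sites in 6 of 13 genes, 8 of them in neither KO list (80%, background 82.5%). Utf1 had 0.944 and 0.889 in WT and no KO listing, at an expected KO coverage of 59.6 and 34.8 reads. Lin28a, an RNA-binding protein gene, had 0.104 of 15651 reads and 0.120 of 21382 reads in WT and 0.115 of 10493 reads and 0.111 of 12004 reads in KO at 180 bases, values that overlapped between genotypes. Abundant housekeeping genes had 11 WT-shared sites in 6 of 10 genes, 9 of them in neither KO list (81.8%, background 82.5%). Eef2, a translation elongation factor, had 0.902 of 1464 reads and 0.907 of 1928 reads in WT and no KO listing, with an expected KO coverage of 1936 and 1164 reads.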

How the data were processed

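Every library has 1 deposited site list, made by the authors. Per the file headers, it gives each site the count of reads showing A or G and of reads showing A, their fraction (the level), the coverage signal of the gene, the conversion fraction and the authors' p-value. Listed sites had a level of at least 0.1, at least 15 reads and a p of at most 0.004. Trimming, alignment and duplicate removal are not given in the sources used here. The submitters' processing notes name mm10, but of 21473 features compared with a GRCm38 gene table, 3.32% had a start no more than 1000 bases away, so coordinates are as listed and only symbols and biotypes come from that table. No genome was used here, and sites were not split into coding and untranslated parts.

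Sites were placed by position in exactly 1 same-strand feature of 29181 (87.0% of positions). Per-library values were compared by two-sided exact permutation tests. For sites in all 4 lists with at least 20 reads in each, edgeR 4.0.16 (R 4.3.3) tested whether the odds of an unconverted read depended on genotype, with each library's coverage taken up by its own term. On simulated counts for those 1557 sites the test recovered 177 of 200 changed sites, and 5 of 182 calls were false. All planted changes had the same large size in log odds, up or down, and the simulated spread was set equal for all sites. These rates therefore do not describe smaller changes or the real spread between libraries. limma 3.58.1, DESeq2 1.42.0 and the other alternatives are in the closing section.

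Named sites were the largest tested changes, the highest WT sites with at least 200 reads in neither KO list, the genes with most shared sites, the highest KO sites with at least 100 reads, and the highest WT-shared site of listed genes, of which examples are given. The 24 KO-shared sites at a level of at least 0.5 were chosen after their values were seen. So were the signalling genes named for their number of sites, Axin2 among them. Members, lists and rules were chosen with earlier results of these data known.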

Additional observations from a re-analysis of the deposited data

Results flagged for a closer look

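The share of sites at a level of 0.5 or more was higher near 3' ends than farther away in both WT libraries, by 1.48 and 0.942 percentage points, and lower near 3' ends in both KO libraries, by -0.840 and -1.68 percentage points. The KO libraries differed from the WT libraries by -2.47 percentage points in this contrast, and every library of one genotype moved against every library of the other. The exact permutation p of this difference was 0.333, the smallest that 2 libraries against 2 allow, so the difference was not shown by that test.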

How the results depend on the processing

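Of 85 values of the main results under alternatives, 65 moved by less than the spread between libraries (for counts of calls, stayed within 1.5 times; for the share in neither KO list, within its interval), and 20 moved. The difference in the share of placed sites near 3' ends, 0.335 percentage points between overlapping groups, took the other sign in some: -0.782 with a coverage of at least 100, -9.35 with a level of at least 0.3, -1.62 without WT 2 and -2.28 without KO 2. No other ratio or difference changed direction. With a coverage of at least 20 the KO to WT ratio of sites at 0.5 or more was 0.347, the WT and KO shares listed again were 18.4% and 6.36%, and the share in neither KO list was 83.9%. With a coverage of at least 100 the ratio of all sites was 0.683, that of sites at 0.5 or more was 0.0413, and the shares listed again were 32.4% and 10.7%. With a level of at least 0.3 the ratio of sites was 0.304, the difference in median level was -0.0868, the share of placed sites near 3' ends differed by -9.35 percentage points, the shares listed again were 57.3% and 10.9%, and 86.4% were in neither KO list. In features of at least 2000 bases 83.8% were in neither KO list, and with 1 protein-coding feature required 83.8%. With a KO-listed position within 100 bases, which could be the site itself, the share was 71.8%.

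Fisher's exact test, run on counts summed by genotype and so with no term for the spread between libraries, called 30 sites (22 lower, 8 higher), and a window of 2000 bases held 16 calls. The likelihood ratio test called 10 lower and 2 higher, in Snx3 and Mat2a. Without 1 library, where the lone library of a genotype is assumed to vary like the others, the calls numbered 6 to 10, the ratio of all sites was 0.773 to 0.917, that of high sites 0.105 to 0.150, the median difference -0.0207 to -0.0137, and the difference in the share near 3' ends -2.28 to 2.95 percentage points, which takes either sign. The labels give numbers but no pairing. A replicate block gave 11 calls (10 lower, 1 higher, in Mat2a with adjusted p = 0.00288) against 8, and ratios of 0.843 and 0.126. Same-numbered libraries' deviations correlated at 0.0587 over 1557 sites. Of the 8 sites that fell, 6 kept an adjusted p under 0.05 in all 10 alternatives; Kdm2b and Qrsl1 did in 7 each. The cause of the moved values was not tested.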
